A study of Sus scrofa with 5 samples.

Results

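The miR-17-92 cluster and its paralogs were followed in exosomes of 5 body fluids of the pig. Members were all listed names that read miR-17, miR-18a, miR-19a, miR-19b, miR-20a, miR-92a, miR-92b, miR-106a or miR-363, with any arm suffix. This rule found 11 names among the 411 in the deposited tables: ssc-miR-17-5p, ssc-miR-17-3p, ssc-miR-18a, ssc-miR-19a, ssc-miR-19b, ssc-miR-20a, ssc-miR-92a, ssc-miR-92b-3p, ssc-miR-92b-5p, ssc-miR-106a and ssc-miR-363, given below without the species prefix. All 11 had counts in at least 1 fluid, as did 237 of the 411. Serum and semen listed 9 of them above 0, plasma 8, bile 7 and urine 3. Of all 411 names, serum listed 180 above 0, semen 174, plasma 161, bile 179 and urine 84. The exosomes, small vesicles that cells release, were isolated from the serum, bile, semen, plasma and urine of Rongchang pigs at postnatal day 180, with 1 small RNA library per fluid. No treatment or genotype separates the groups, which are named by fluid alone. The sources used here do not say how many animals stand behind a library or whether fluids came from the same animals. Fluids were compared to describe which members each one carries, and with 1 library each no difference has a replicate check.

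The cluster is transcribed as a single RNA that carries several hairpins, each of which can give a 5p and a 3p mature arm. It is known in human and mouse as a MYC-driven cluster that supports proliferation and survival of blood cell precursors and of many tumours. Its X-linked paralog carries miR-106a and miR-363 among others, and miR-92b has a locus of its own. In RefSeq's gene table (assembly Sscrofa11.1) the 6 hairpin genes MIR17, MIR18A, MIR19A, MIR20A, MIR19B-1 and MIR92A-1 stand side by side with no other gene between them. MIR363-1, MIR92A-2, MIR19B-2, MIR20B-1, MIR18B and MIR106A form a second such run of 6. Mature miR-19b and miR-92a can therefore come from either run, and their counts cannot be split by origin. By seed, the stretch near the 5' end that pairs with targets, miR-17-5p, miR-20a and miR-106a form one group, miR-19a and miR-19b another, and miR-92a, miR-92b-3p and miR-363 the last. miR-18a stands beside them, and miR-17-3p and miR-92b-5p are the opposite arms of their hairpins.

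The listed miRNA counts came to 2284926 in semen, 1673239 in bile, 1153755 in plasma, 473168 in serum and 26522 in urine. Levels are given as CPM, counts per 1000000 of these totals, with exact 95% intervals that cover counting error only. No count between 1 and 9 occurs in the files, so a listed 0 stands for at most 9 reads. Sums and shares took a listed 0 as 0, and their intervals leave out such hidden reads. Where a ratio needs it, a listed 0 was read as 10 counts, which is 377 CPM in urine but 4.38 in semen, 5.98 in bile, 8.67 in plasma and 21.1 in serum. The rule for reads that match several members is unknown, so the split within a seed group is uncertain.

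Serum carried the largest share of the family, and miR-92a made up most of it. The 11 members took 3.77% of serum miRNA counts, 0.890% of urine, 0.316% of bile, 0.193% of semen and 0.106% of plasma. Serum thus stood 4.23 times above urine, the next fluid (95% interval 3.72 to 4.83), and 11.9 times above bile (11.5 to 12.3). Urine listed 3 of the 11 names, and hidden reads of the others there would lower its ratio of 4.23. Without miR-92a the order changed: the other 10 names took 0.503% of serum counts (0.483 to 0.524) and 0.698% of urine counts (0.601 to 0.805). Serum was then 0.722 times urine (0.621 to 0.843), where miR-363 supplied 171 of the 185 remaining counts. Without both miR-92a and miR-363 serum led again, with 4529 CPM, against 1003 in bile, 630 in semen, 528 in urine and 387 in plasma. The urine value was 14 counts of 1 name, with the rest of the 9 names listed at 0. Each of those can hide up to 9 reads, so the place of urine below bile and semen was not measured.

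**Figure D1:**
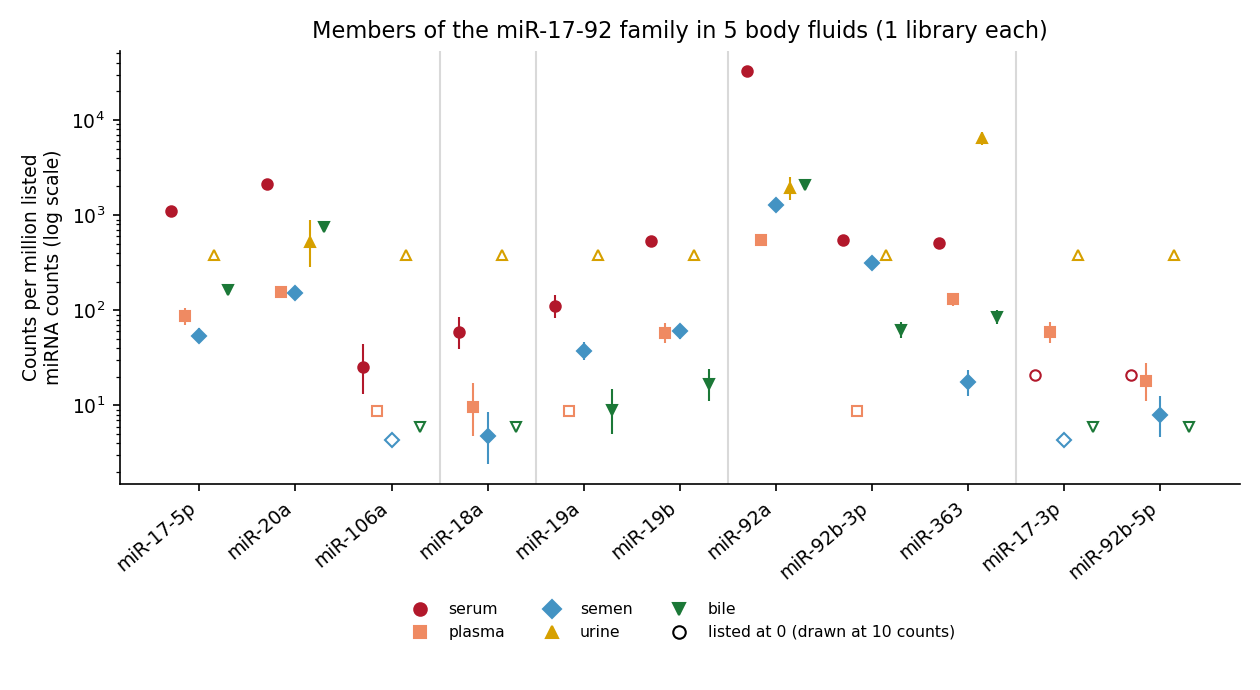
Level of each of the 11 members in the 5 fluids, in CPM on a log axis, with 1 library per fluid and bars for the exact 95% counting interval; vertical lines separate the seed groups, and open symbols mark a listed 0, drawn at 10 counts. Serum miR-92a at 32635 CPM and urine miR-363 at 6447 CPM stand above all other points.

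By rule, 8 of the 11 members had their highest CPM in serum, where 37.1% of the 237 miRNAs with at least 10 counts in a library did. They were miR-17-5p, miR-20a, miR-106a, miR-18a, miR-19a, miR-19b, miR-92a and miR-92b-3p. Reading a listed 0 as 10 counts left 5 of 11, against 19.8% of the 237, since miR-106a, miR-18a and miR-19a were lower in serum than 10 counts would be in urine. Of the other members, miR-17-3p and miR-92b-5p were highest in plasma (16.9% of the 237) and miR-363 in urine (15.6%). With a listed 0 read as 10 counts, no member was highest in plasma (7.17% of the 237), and miR-363 remained highest in urine (15.6%). No member was highest in semen or in bile (15.2% each). Other scalings gave other counts, among them TMM and the size factors of DESeq2, which assume that most miRNAs do not differ between libraries: 5 members were highest in serum with TMM (20.7% of the 237), 7 under DESeq2 size factors (23.2%) and 6 by the authors' RPM (16.9%), which counts reads per 1000000 of the whole library. On the RPM the set differed: miR-363 joined it, miR-20a was highest in bile, and miR-19a and miR-92b-3p were highest in semen. Reading a listed 0 as 10 counts left 3 with TMM (11.4% of the 237), 4 under the size factors of DESeq2 (13.1%) and 5 by the RPM (15.6%). miR-17-5p and miR-92a were highest in serum under each of these scalings and with totals that leave out the most abundant miRNA, whichever way a listed 0 was read. Under all of them except the authors' RPM, where bile was 1.25 times serum, miR-20a was too. miR-106a, with 12 counts, was among the members highest in serum under none of them once a listed 0 was read as 10 counts.

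miR-92a is known in human as a red blood cell and platelet miRNA that restrains vessel growth. It had 15442 counts in serum, 3474 in bile, 2932 in semen, 630 in plasma and 51 in urine. That made 32635 CPM in serum (32131 to 33145), against 2076 in bile (2008 to 2146), 1923 in urine (1432 to 2528), 1283 in semen (1237 to 1330) and 546 in plasma (504 to 590). The intervals of bile and urine overlapped, and all other neighbours in this order by CPM were separated by more than counting error. It ranked 8th by count in serum and 28th in bile. In semen it was 32nd, in urine 37th and in plasma 40th. At 15.7 times bile (15.1 to 16.3), miR-92a was the single member at least 4 times above every other fluid in serum, among 6 members with 100 or more counts there. By the same rule 12.6% of 103 miRNAs passed. The call also held with TMM, DESeq2 size factors, the reduced totals and the authors' RPM, where the ratio to the next fluid was 6.05, 7.24, 13.03 and 4.43. That next fluid was plasma with TMM, although plasma was lowest by CPM, and bile under the others. Without the urine library miR-17-5p and miR-19b passed too, which made 3 members, as did 28.2% of the 103. The same 3 passed when a listed 0 was read as 3 counts (24.3%), and miR-92a, miR-17-5p and miR-20a passed at a limit of 2 times (29.1%). Of the 103 miRNAs, 6.8% passed with TMM and with DESeq2 size factors, and 11.7% with the reduced totals and on the RPM.

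The share of miR-92a in the family differed between fluids, a measure that no scaling between libraries can alter. miR-92a took 86.6% of family counts in serum (86.1 to 87.1), 66.5% in semen (65.0 to 67.8), 65.6% in bile (64.3 to 66.9) and 51.3% in plasma (48.5 to 54.2). In urine it took 21.6% (16.5 to 27.4). Semen and bile could not be told apart, and the other fluids were further apart than their intervals.

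Grouped by locus, the libraries differed as well. Members of the miR-17-92 run alone (both miR-17 arms, miR-18a, miR-19a and miR-20a) took 29.2% of family counts in bile and 29.2% in plasma, 12.8% in semen, 9.07% in serum and 5.93% in urine. The names shared by both runs, miR-19b and miR-92a, took 88.1% in serum, 69.6% in semen, 66.1% in bile, 56.8% in plasma and 21.6% in urine. Members of the X-linked run alone, miR-106a and miR-363, took 72.5% in urine (66.3 to 78.1) and 12.3% in plasma (10.5 to 14.3), against 2.70% in bile, 1.41% in serum and 0.907% in semen. The miR-92b locus held 16.7% in semen and, as listed, under 2% in plasma, bile and serum. Urine listed neither of its arms. All urine shares are of 236 listed counts from 3 of the 11 names, and hidden reads of the others could change them beyond the intervals. The place of urine below serum and semen for the miR-17-92 run was therefore not measured.

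**Figure D2:**
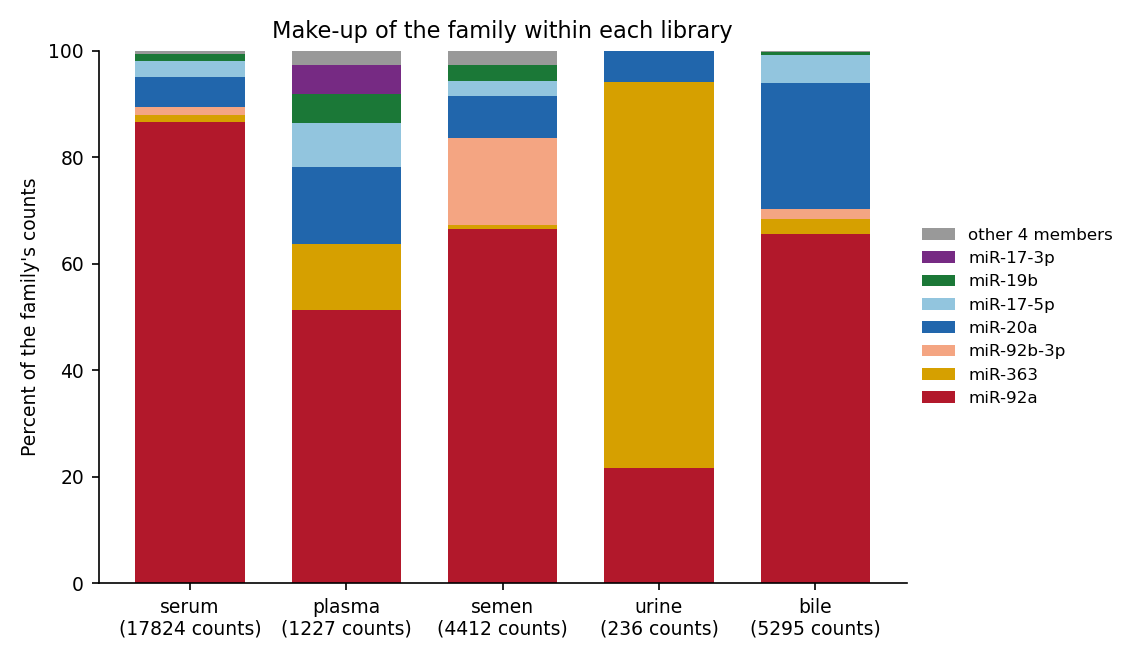
Stacked bars show the percent of the family's counts that each member took within each library, with the family's total count under each fluid. miR-92a fills 86.6% of the serum bar, miR-363 72.5% of the urine bar, miR-92b-3p 16.3% of the semen bar and miR-20a 23.7% of the bile bar.

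miR-363, from the X-linked paralog, set urine apart. Its counts were 171 in urine and, in the larger libraries, 239 for serum, 151 for plasma, 143 for bile and 40 for semen. Urine held 6447 CPM (5520 to 7486), against 505 for serum (443 to 573), 131 for plasma (111 to 153), 85.5 for bile (72.0 to 101) and 17.5 for semen (12.5 to 23.8). Every step in this order exceeded counting error. miR-363 ranked 22nd in urine, above miR-92a, and it was the only member with at least 100 counts there. Urine exceeded serum by 12.8 times (10.4 to 15.6), plasma by 49.3 times (39.3 to 61.7) and semen by 368 times (260 to 534). The rule of 4 times every other fluid was met in urine, as it was by 26.9% of the 26 miRNAs with 100 counts there. On the authors' RPM the direction against serum was the opposite, with 15.8 for urine, 22.6 for serum, 20.9 for plasma, 13.5 for bile and 3.70 for semen. Listed miRNAs made up 0.246% of the reads in the urine library and 4.47% to 21.2% in the others.

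The ratio of miR-363 to miR-92a within a library does not depend on that scaling. Per 100 counts of miR-92a, miR-363 had 335 in urine (244 to 468), 24.0 in plasma (19.9 to 28.7), 4.12 in bile (3.46 to 4.87), 1.55 in serum (1.36 to 1.76) and 1.36 in semen (0.973 to 1.86). The urine ratio was 217 times the serum ratio (exact conditional interval 153 to 309) and 14.0 times the plasma ratio (9.63 to 20.4). The plasma ratio was itself 15.5 times that of serum (12.3 to 19.4), while semen and serum did not differ beyond counting error (0.881 times, 0.613 to 1.24). Urine was therefore the only fluid of the 5 in which miR-363 outnumbered miR-92a. Of the other X-linked names, miR-106a had 12 serum counts and a listed 0 in all 4 other fluids. miR-20b, which is outside the membership rule, had 55 in serum alone, and miR-18b was listed at 0 in all 5.

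**Figure D3:**
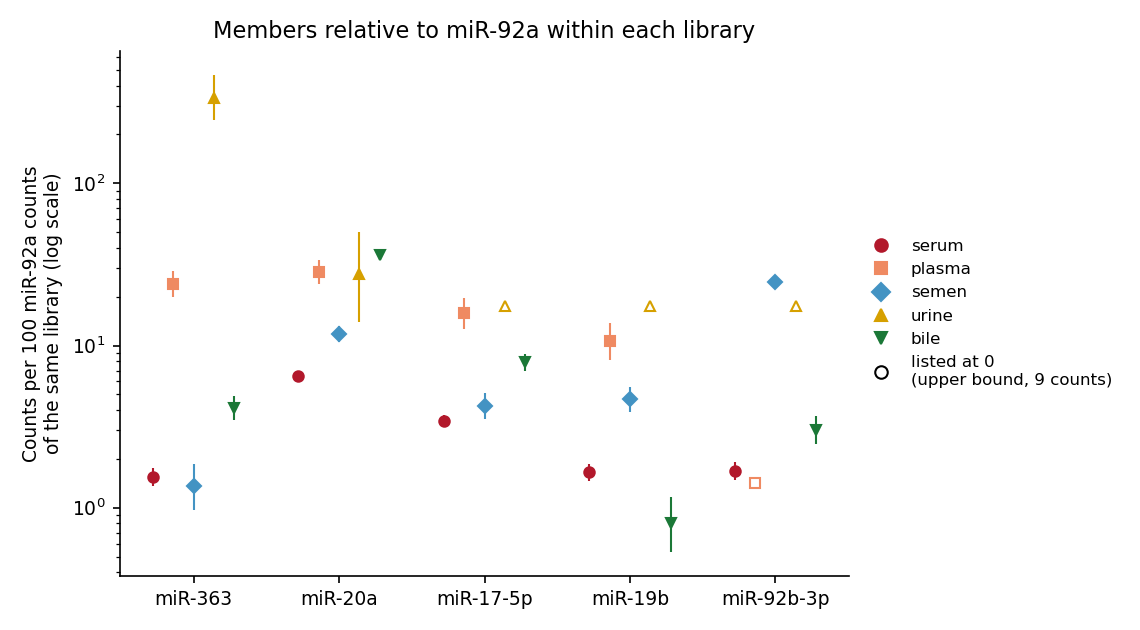
Counts of 5 members per 100 counts of miR-92a in the same library, on a log axis, with 95% counting intervals; open symbols are upper bounds for members listed at 0, taken as 9 reads. miR-363 reaches 335 in urine and miR-92b-3p 24.6 in semen, against 1.55 and 1.68 in serum.

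miR-92b-3p, which shares the miR-92 seed and is known in mouse from neural progenitors, took 16.3% of the family in semen (15.2 to 17.4), against 1.98% in bile and 1.46% in serum. Its counts were 720 in semen, 260 in serum, 105 in bile and 0 as listed in plasma and urine. By CPM serum was ahead, with 549 (485 to 620), against 315 in semen (293 to 339) and 62.8 in bile (51.3 to 76.0). With totals lacking the most abundant miRNA the fluids were about even, serum being 1.004 times semen. They were about even with TMM too, where semen was 1.002 times serum. With DESeq2 size factors semen was 1.28 times serum, and on the authors' RPM 2.72 times. Within libraries, miR-92b-3p had 24.6 counts per 100 miR-92a in semen (22.6 to 26.7), 3.02 in bile (2.46 to 3.67) and 1.68 in serum (1.48 to 1.90). The semen ratio was 14.6 times that of serum (12.6 to 16.96) and 8.12 times that of bile (6.57 to 10.1). In plasma a listed 0 beside 630 counts of miR-92a allows at most 1.43 per 100. Urine, with 51 counts of miR-92a, gave no useful limit.

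The miR-17 seed group, which in human and mouse represses cell cycle brakes such as CDKN1A, was led by miR-20a in all 5 fluids. miR-20a had 1006 counts in serum, 1256 in bile, 344 in semen, 179 in plasma and 14 in urine. It stood at 2126 CPM in serum (1997 to 2261), 751 in bile (710 to 793), 528 in urine (289 to 886), 155 in plasma (133 to 180) and 151 in semen (135 to 167). Bile and urine could not be told apart, nor could plasma and semen. miR-17-5p followed with 529 counts in serum, 274 in bile, 124 in semen and 100 for plasma, and was listed at 0 in urine. Its level was 1118 CPM in serum (1025 to 1217), 164 in bile (145 to 184), 86.7 in plasma (70.5 to 105) and 54.3 in semen (45.1 to 64.7). Had urine held miR-17-5p at its serum share, 29.7 counts would have been expected there, above the 10 at which counts are listed. At its share in plasma, semen or bile, 1.44 to 4.34 counts would have been expected, so the urine value is not informative against those fluids.

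Both lead members come from the same primary transcript, yet their proportion was not constant. Per 100 counts of miR-20a, miR-17-5p had 55.9 in plasma (43.3 to 71.7), 52.6 in serum (47.2 to 58.5), 36.0 in semen (29.1 to 44.4) and 21.8 in bile (19.1 to 24.9). Plasma and serum did not differ beyond counting error (1.06 times, 0.805 to 1.40). Bile had 0.415 times the serum proportion (0.349 to 0.492) and semen 0.685 times (0.540 to 0.868). Per 100 counts of miR-92a, miR-20a had 36.2 in bile (33.9 to 38.6), 28.4 in plasma (23.9 to 33.6), 27.5 in urine (14.03 to 50.4), 11.7 in semen (10.5 to 13.1) and 6.51 in serum (6.11 to 6.94). The bile ratio was 5.55 times that of serum (5.06 to 6.08) and 1.27 times that of plasma (1.06 to 1.53), and the plasma ratio was 4.36 times that of serum (3.63 to 5.22). The whole miR-17 seed group took 28.9% of family counts in bile (27.7 to 30.1), 22.7% in plasma, 10.6% in semen, 8.68% in serum and 5.93% in urine. In urine miR-20a was the only listed name of the group, so that share leaves out hidden reads of the others.

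The miR-19 pair, which in mouse lymphoma accounts for much of the cluster's oncogenic activity, was scarce. miR-19b had 255 counts in serum, 137 in semen, 67 in plasma, 28 in bile and 0 as listed in urine. It reached 539 CPM in serum (475 to 609), 59.96 in semen (50.3 to 70.9), 58.1 in plasma (45.0 to 73.7) and 16.7 in bile (11.12 to 24.2), with semen and plasma overlapping. Bile, rich in miR-20a, was poor in miR-19b: it had 2.23 counts per 100 miR-20a (1.48 to 3.24), against 39.8 in semen (32.4 to 48.7), 37.4 in plasma (27.8 to 49.8) and 25.3 in serum (22.0 to 29.1). miR-19a had 53 counts in serum, 86 in semen and 15 in bile, and was listed at 0 in plasma and urine. Per 100 miR-19b it stood at 62.8 in semen (47.4 to 82.8), against 20.8 in serum (15.2 to 28.0), a difference of 3.02 times (1.99 to 4.61). The bile value, 53.6 (26.6 to 104), rests on 15 and 28 counts. At its serum share, urine would have been expected to hold 14.3 counts of miR-19b but 2.97 of miR-19a, so the listed 0 of miR-19a in urine is not informative.

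miR-18a, a member whose seed differs slightly from that of miR-17-5p, had 28 counts in serum, 11 each in plasma and semen, and 0 as listed in bile and urine. It stood at 59.2 CPM in serum (39.3 to 85.5), 9.53 in plasma (4.76 to 17.1) and 4.81 in semen (2.40 to 8.61), and the intervals of plasma and semen overlapped. In bile, beside 1256 counts of miR-20a, it had at most 0.717 per 100, against 2.78 in serum (1.84 to 4.05). miR-106a, at 25.4 CPM in serum (13.1 to 44.3), was by CPM at least 2.93 times higher than in plasma, where the counting interval began at 1.16. In log2 this bound was 1.55, under the median serum to plasma log2 ratio of 2.77 over 109 miRNAs with counts in both. It was not computed under the other scalings, so no order of the 2 fluids is claimed beyond CPM.

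The opposite arms appeared in plasma. miR-17-3p had 68 counts in plasma and was listed at 0 in serum, semen, urine and bile. At 58.9 CPM in plasma, miR-17-3p was at least 2.79 times higher than in serum, where the counting interval began at 1.43. miR-92b-5p had 21 counts in plasma and 18 in semen, and was listed at 0 elsewhere. Its 18.2 CPM in plasma lay under the 21.1 CPM that 10 counts make in serum, so no order of those fluids can be read. In plasma the 3p arm took 40.5% of the miR-17 counts (33.0 to 48.3), while a listed 0 allows at most 1.67% in serum, 3.18% in bile and 6.77% in semen. For miR-92b, plasma listed the 5p arm alone, so that it had at least 70.0% there, although on 21 counts. In semen that arm had 2.44% of the miR-92b counts, and in serum and bile at most 3.35% and 7.89%. Among the 28 miRNAs listed with both arms and at least 100 counts in serum and in plasma, miR-17 had the largest change in arm share between plasma and serum, 40.5 percentage points, where the median change was 2.99. This comparison of arms was chosen after the values were seen. miR-425 came next, with 33.8 points towards its 3p arm in plasma, and was also picked after its value was seen.

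Serum is the fluid left when blood has clotted, and plasma that of blood kept from clotting. The family was at 37670 CPM in serum and 1063 in plasma, a ratio of 35.4 (33.4 to 37.6). All 6 members with at least 100 counts in either library were at least 2 times higher in serum by CPM, as were 73.1% of the 119 miRNAs tested, and no member was 2 times lower (20.2% of the 119). The share of the members was thus read against a general shift: over 109 of these miRNAs with counts in both libraries the median log2 ratio of serum to plasma was 2.77, and it became -0.53 with TMM, 0.94 under DESeq2 size factors, 0.93 by the authors' RPM and 2.29 with the reduced totals. Over the 5 members among them it was 3.69 by CPM. The 3 most abundant names of plasma, miR-378, miR-320 and miR-423-5p, held 3.86% of serum counts and 83.9% of plasma counts, which enter the CPM of all other names. With TMM, miR-92a and miR-92b-3p were at least 2 times higher in serum (28.6% of the 119) and miR-363 was lower (43.7%).

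Relative to that median shift, members separated widely, and these distances do not change with a scaling by 1 factor per library. miR-92a, 59.8 times higher in serum by CPM (55.2 to 64.8), lay 3.13 log2 units above the median shift, or 8.73 times. miR-20a at 13.7 times (11.7 to 16.2) lay 1.002 above it and miR-17-5p at 12.9 times (10.4 to 16.1) lay 0.91 above it. miR-19b at 9.28 times (7.07 to 12.3) lay 0.44 above it. miR-18a at 6.21 times (2.995 to 13.8) lay -0.14 from it, within its counting interval, and miR-363 at 3.86 times (3.13 to 4.76) lay -0.83 from it. miR-92b-3p, listed at 0 in plasma, was at least 63.4 times higher in serum (33.9 at the lower end). With TMM, miR-92a remained higher in serum at 6.05 times, miR-20a came to 1.39 and miR-17-5p to 1.31, miR-19b stood at 0.940, and miR-18a and miR-363 were on the plasma side at 0.628 and 0.391.

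**Figure D4:**
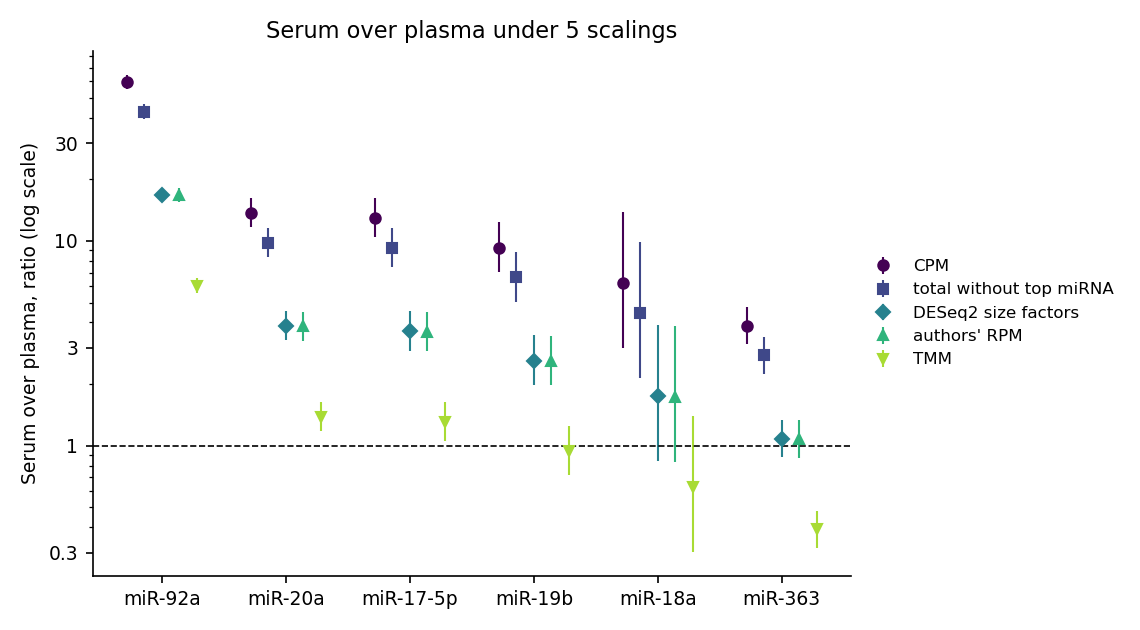
Ratio of serum to plasma for the 6 members with counts in both libraries, on a log axis with a dashed line at 1, under 5 scalings, with 95% counting intervals. The order runs from miR-92a, at 59.8 by CPM and 6.05 with TMM, to miR-363, at 3.86 and 0.391. A change of scaling multiplies all these ratios by 1 factor, so the order could not change and only the height moves.

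The summed blood cell markers were highest in serum, like most members. The red blood cell markers miR-451, miR-144 and miR-486 were all listed above 0 in serum, plasma and bile, and summed to 102146 CPM in serum, against 5828 for plasma, 4675 for urine, 4173 for bile and 5.25 for semen. miR-451 alone had 84805 CPM in serum, against 4139 for plasma, and miR-486 had 17286 in serum and 1655 in plasma. miR-144 was scarce, with 54.9 CPM in serum and 34.7 in plasma on 26 and 40 counts. miR-451 and miR-144 were at 0 in semen, and miR-144 and miR-486 in urine. The leukocyte names, both arms of miR-142 and miR-150, summed to 3734 CPM in serum, 244 in plasma and 176 in bile, and all 3 were at 0 in semen and urine. In semen these markers were at or near 0, and miR-92a had 1283 CPM and miR-20a 151. In urine miR-204, a kidney epithelium marker, had 4713 CPM, against 155 in bile, 68.3 in semen and a listed 0 in serum and plasma. The hepatocyte marker miR-122 was at 54673 CPM in bile, 10259 in plasma, 3893 in serum, 377 in urine and 14.0 in semen. The part of these cells in the family's levels was not tested.

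Among 160 other miRNAs with at least 100 counts in a fluid, the profile over the 5 fluids most like that of miR-92a was miR-126-3p, an endothelial and platelet miRNA. Its centred log2(CPM + 10) values differed from those of miR-92a by 0.47 (root mean square), and it stood at 4445 CPM in serum, 528 in urine, 488 in bile, 366 in semen and 192 in plasma. The next, miR-2320-3p and miR-24-1-5p at 0.68 and 0.71, were listed at 0 in urine, plasma and bile, and had 133 and 115 counts in serum. In semen miR-2320-3p was listed at 0 too, and miR-24-1-5p had 10 counts. At their serum share, urine would have been expected to hold 7.45 and 6.45 counts of them, under the 10 at which counts are listed, so their distances, which take a listed 0 as 0, rest partly on unmeasured values. For miR-20a the nearest were miR-27a at 0.48, miR-126-3p at 0.68 and miR-152, of the miR-148 seed family, at 0.69. For miR-363 the nearest was the skeletal muscle miRNA miR-206 at 0.97, with 4261 CPM in urine, 543 for serum, 379 for plasma, 103 for bile and a listed 0 for semen. The others were miR-181a at 1.91 and miR-27b-3p at 2.10, which lie further off. These likenesses rest on at most 5 values each, with miR-2320-3p listed above 0 in serum alone, and are descriptions.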

How the data were processed

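Small RNA was sequenced from exosomes of 5 fluids, 1 library each. The authors deposited a read count per mature miRNA name, and a Normalized_Value column whose values are RPM, reads per 1000000 of a library total recovered here by dividing deposited counts by it (7207788 in plasma, 10555126 to 10801967 in the others). Per the submitters' processing notes, bcl2fastq 2.17 and the build Sscrofa10.2 were used. For the aligner, the annotation and the rule for multiple matches: not given in the sources used here. Exosomes were collected with a commercial reagent, per the labels' protocols.

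CPM, shares (Clopper-Pearson) and ratios (conditional binomial, or the conditional odds ratio for ratios of ratios) were computed with Python 3.11.15 and scipy 1.17.1, with exact 95% intervals. These cover counting error only, as no molecular identifiers are named. With 1 library per fluid there is no test and no p-value. A miRNA was measured at 10 or more counts in a library. Calls needed 100 counts and 4 times every other fluid, or 2 times between serum and plasma, with a listed 0 read as 10. Alternatives were TMM (edgeR 4.0.16), DESeq2 1.42.0 size factors (poscounts), totals without the most abundant miRNA, the authors' RPM, other limits, and libraries or members left out. The calls were tried on simulated counts in which abundant names were raised in serum well above the limits. That simulation held counting error only and did not set counts under 10 to 0. It cannot show how the calls behave for scarce names or for ratios near the limits.

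Named miRNAs are the members (10 were planned, and miR-92b-5p also met the membership rule, which made 11), miR-18b and miR-20b, the markers and the 3 nearest profiles of miR-92a, miR-20a and miR-363. Beside these, miR-425 and the 3 most abundant names of plasma (miR-378, miR-320 and miR-423-5p) were named after their values were seen. The planned miR-106b-25 list and miR-223 matched no name and were not analysed here. Seed groups were set from general knowledge. Members and lists were chosen with earlier results of these data known.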

Additional observations from a re-analysis of the deposited data

How the results depend on the processing

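By CPM the family in serum was 35.4 times plasma. It was 3.59 times with TMM, 9.92 with DESeq2 size factors, 25.3 with totals lacking the most abundant miRNA, 9.88 on the authors' RPM and 9.73 without miR-92a. Serum over the next fluid, 4.23 by CPM, was 3.59 with TMM (next plasma), 3.05 with DESeq2 size factors (next urine), 3.35 by RPM (next bile), 11.9 without the urine library and, in the opposite direction, 0.722 without miR-92a. Members highest in serum numbered 8 (37.1% of all miRNAs tested), and 5 with TMM (20.7%). Members 4-fold enriched in serum numbered 1 (12.6% of all miRNAs tested), and 3 with a floor of 3 counts (24.3%), with a limit of 2 times (29.1%) or without urine (28.2%). Members 2-fold higher in serum than plasma numbered 6 (73.1% of all miRNAs tested), and 2 with TMM (28.6%). miR-363 in urine, 12.8 times the next fluid, was 4.39 with TMM, 17.7 under DESeq2 scaling and 49.3 without the serum library, and reversed to 0.702 on the authors' RPM. The share of miR-92a in the serum family, 86.6%, was 87.9% without miR-92b-3p. For the change with TMM, the DESeq2 size factors and the RPM, the cause was not tested beyond the library totals they use. Leaving out miR-92b-5p or adding miR-20b, both chosen after seeing the data, kept both ratios of the family in serum within their intervals. Shares by locus were not recomputed with either. The small urine total limits what a listed 0 there can show, and sums and shares took each listed 0 as 0. No paired analysis was possible because each fluid has 1 library.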
